A study of Homo sapiens with 12 samples.

Results

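The genes described here are 48 neighbours on the short arm of human chromosome 20 (20p), running in order from TRMT6 to XRN2, between CHGB and the NKX2-4 gene. The stretch was chosen by its log2 signal differences between selected and unselected HTB56 cells, where many of its genes read higher after selection, so the HTB56 change is described with no test. Of the 48 genes, 44 had a probe set whose annotation names that gene alone, out of 18417 genes named in this way. SPTLC3, PCSK2, KAT14 and CRNKL1 had none and have no value. HAO1, SEL1L2 and OTOR were dim and did not pass the filter on low signal, which left 41 of the list among the 16939 genes tested.

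The 12 Affymetrix whole-transcript arrays measured mRNA of A549, a human lung adenocarcinoma line, and of HTB56, another established line from a human lung cancer, which many laboratories call Calu-6. Unselected cells (0 rounds) formed the groups A0R and H0R. Cells taken through 3 rounds of in vivo selection, in which injected cells formed lung nodules in mice, formed A3R and H3R, and every group had 3 arrays. All groups carry the label untreated for 5-azacytidine, the labels give no other treatment, and they say neither whether a selected line is a clone or a pool nor whether the replicates were separate cultures. A p-value here therefore measures the spread between these samples, which may be technical. All levels are log2 signals after robust multi-array averaging (RMA), with array medians of 5.55 to 5.67, and their precision is limited by the number of arrays.

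The short arm of chromosome 20 holds genes of unrelated pathways that are neighbours without being a family. Those on the list act in tRNA and rRNA modification and processing, DNA repair and replication, mitochondrial assembly, vesicle coats and endosomes, actin and integrin adhesion, and phospholipid signalling. Many are housekeeping genes, active in most cell types, whereas others belong to specialised cells such as lens fibres, cilia-bearing cells or liver. Housekeeping genes usually start in stretches rich in the dinucleotide CG, and neighbours on opposite strands often start back to back from a shared stretch.

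Shared starts were present within the list. The RefSeq promoter table (GRCh38.p14) held the 250 bases before the start of 38 of the 48 genes. For 11 of the 38 (28.95%) this window overlapped that of a gene on the opposite strand, against 14.86% of 27305 windows in the table. These included 5 pairs with both genes on the list. The overlapping stretches of 4 of these pairs, which are those with both genes measured and at least 1 raised by over 0.5 in HTB56, are shown on the plus strand, with capitals for matches to a GC box (GGGCGG, or CCGCCC on the other strand) or a CCAAT box (CCAAT, or ATTGG on the other strand).
TRMT6 and MCM8, chr20:5950534-5950651: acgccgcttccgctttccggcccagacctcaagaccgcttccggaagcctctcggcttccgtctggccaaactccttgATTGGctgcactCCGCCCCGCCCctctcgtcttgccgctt
ESF1 and NDUFAF5, chr20:13784920-13785027: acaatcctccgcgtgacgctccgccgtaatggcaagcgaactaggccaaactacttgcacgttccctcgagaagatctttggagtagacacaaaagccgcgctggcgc
SNX5 and MGME1, chr20:17968795-17969017: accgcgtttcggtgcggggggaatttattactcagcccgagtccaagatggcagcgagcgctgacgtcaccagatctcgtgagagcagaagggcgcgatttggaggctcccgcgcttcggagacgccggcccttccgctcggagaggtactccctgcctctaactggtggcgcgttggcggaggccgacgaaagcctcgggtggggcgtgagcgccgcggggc
DZANK1 and POLR3F, chr20:18467140-18467280: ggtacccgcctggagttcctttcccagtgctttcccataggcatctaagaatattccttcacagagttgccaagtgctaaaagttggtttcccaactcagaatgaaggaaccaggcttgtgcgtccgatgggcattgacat

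The stretch between TRMT6 and MCM8 held 2 GC boxes, which overlap, and 1 CCAAT box in 118 bases. The other 3 stretches held neither. They differed in CG content. The 223 bases between SNX5 and MGME1 held 28 CG dinucleotides, and the 141 bases shared by the windows of DZANK1 and POLR3F held 3. In the first 3 pairs the shared bases were all those between the starts. For DZANK1 and POLR3F they were only the middle part, so these counts do not compare like regions. The whole window of DZANK1 held 12 CG, 1 GC box and 1 CCAAT box. That of POLR3F held 12 CG and neither box. Both genes of the first 3 pairs carried more mRNA in H3R than in H0R, by 1.03 and 0.84 for TRMT6 and MCM8, by 0.95 and 0.95 for ESF1 and NDUFAF5, and by 0.85 and 0.94 for SNX5 and MGME1, on the log2 scale. In the fourth pair POLR3F differed by 0.96 and DZANK1 by 0.36. The fifth pair, SEL1L2 with MACROD2, shared 182 bases and was dim in every group, with differences of 0.16 and -0.14.

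Single promoters also ranged widely. The windows of SLX4IP and KIF16B, the highest HTB56 differences on the list, and those of FLRT3, the lowest, and CFAP61, a dim gene of cilia, are printed on each gene's own strand with the same capitals.
SLX4IP, plus strand, chr20:10435055-10435304: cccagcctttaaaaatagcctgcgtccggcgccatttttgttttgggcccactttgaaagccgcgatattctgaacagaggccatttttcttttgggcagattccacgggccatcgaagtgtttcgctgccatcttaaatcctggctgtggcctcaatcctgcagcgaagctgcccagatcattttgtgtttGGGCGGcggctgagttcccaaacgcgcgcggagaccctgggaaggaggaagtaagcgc
KIF16B, minus strand, chr20:16573449-16573698: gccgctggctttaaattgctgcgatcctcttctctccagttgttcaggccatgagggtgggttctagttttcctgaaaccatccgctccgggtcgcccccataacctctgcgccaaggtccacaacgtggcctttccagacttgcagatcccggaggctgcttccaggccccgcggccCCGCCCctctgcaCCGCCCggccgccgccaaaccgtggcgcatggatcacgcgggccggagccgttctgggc
FLRT3, minus strand, chr20:14337613-14337862: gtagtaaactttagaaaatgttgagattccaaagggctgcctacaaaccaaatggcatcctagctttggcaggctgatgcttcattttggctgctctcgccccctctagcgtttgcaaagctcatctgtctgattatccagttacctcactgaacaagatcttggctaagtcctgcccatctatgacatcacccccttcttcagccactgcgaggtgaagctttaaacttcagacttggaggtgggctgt
CFAP61, plus strand, chr20:20056396-20056645: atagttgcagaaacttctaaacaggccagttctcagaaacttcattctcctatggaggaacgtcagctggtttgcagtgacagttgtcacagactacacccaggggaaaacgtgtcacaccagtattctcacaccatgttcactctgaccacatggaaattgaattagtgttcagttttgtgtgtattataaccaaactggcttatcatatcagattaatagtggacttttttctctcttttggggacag

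These windows held 16, 21, 3 and 2 CG dinucleotides, in that order. The median was 18 CG per window over the 38 genes and 11 over all windows. It was 19 in the 23 windows of genes that differed by over 0.5 in HTB56 and 10 in the 9 windows of the other tested genes. The ranges overlapped, at 3 to 31 and 2 to 31. This split uses the HTB56 contrast behind the list. It largely follows signal level, as 22 of the 26 genes above 0.5 were brighter than the median gene tested. A GC box was found in 17 of the 38 windows (44.7%, against 42.3% of all windows), a CCAAT box in 15 (39.5%, against 33.0%) and the letters TATAAA in 0 (against 11.1%), on either strand. These are letter matches and say nothing of binding, and the pairs, motifs and printed windows were chosen after the expression values were seen.

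In HTB56, 37 of the 41 tested genes had a higher mean in H3R than in H0R (54.3% of all genes), and the median difference was 0.73 (1.66-fold), against 0.02 for all genes tested. The middle of the list ran from 0.28 to 0.95 (quartiles), with SLX4IP highest at 1.37 and FLRT3 lowest at -1.11. The 3 H3R arrays lay above all 3 H0R arrays for 30 of the 41, where this held for 16.5% of all genes, and below them for 1, FLRT3, against 17.8%. A difference above 0.5 was seen in 26 of the 41 (5.3% of all genes). A difference of at least 1 was seen in 8, against 166 of all 16939 genes tested. Since the list came from this contrast, these counts describe it and support nothing further.

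**Figure D1:**
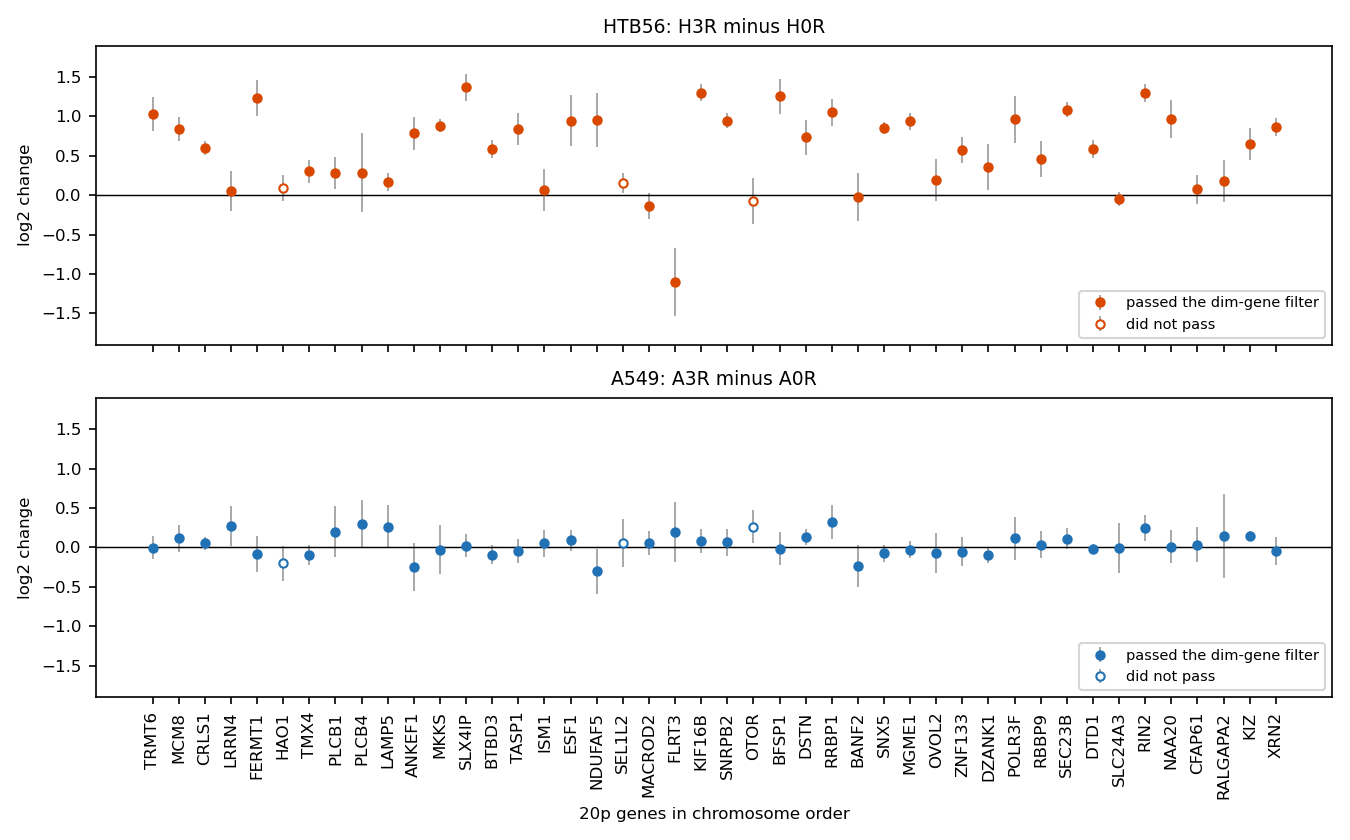
Change after selection in HTB56 (top) and A549 (bottom) for the 44 measured genes, in chromosome order. Points are differences of group means (n = 3 arrays each, log2), and vertical lines are ± the square root of the summed squared SDs. Open points are the 3 genes that did not pass the filter. Apart from FLRT3 at -1.11, HTB56 points spread from -0.14 (MACROD2) to 1.37 (SLX4IP), while A549 points stay between -0.30 and 0.32.

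Several listed genes handle RNA. TRMT6, the non-catalytic subunit of the enzyme that methylates adenosine in tRNA, read 8.29, 8.03 and 8.41 on the H0R arrays and 9.37, 9.17 and 9.29 on the H3R arrays. Every H3R array was above every H0R array, a 2.05-fold difference of means (8.24 ± 0.19 and 9.28 ± 0.10, SD, n = 3). POLR3F, a subunit of RNA polymerase III, read 8.09, 7.51 and 7.90 in H0R and 8.80, 8.73 and 8.87 in H3R. Its H0R arrays were spread over 0.29 (SD), yet the groups did not overlap. XRN2, the nuclear 5′ to 3′ exoribonuclease that closes the list, was bright, at 9.75 ± 0.07 in H0R and 10.61 ± 0.09 in H3R. SNRPB2, a protein of the U2 splicing particle, went from 9.21 ± 0.07 to 10.15 ± 0.06, and ESF1, a nucleolar factor of rRNA processing, from 8.54 ± 0.28 to 9.49 ± 0.16. DTD1, which removes D-amino acids from tRNA, differed less, by 0.58.

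Others act in DNA repair or in mitochondria. SLX4IP, a partner of the SLX4 scaffold for DNA nucleases, read 6.31, 6.16 and 6.18 in H0R and 7.75, 7.50 and 7.51 in H3R. Its lowest H3R array was far above its highest H0R array, and the 2.58-fold difference was the highest of the list. MCM8, a helicase of homologous recombination, differed by 0.84 from a bright start (9.74 ± 0.14 in H0R). MGME1, an exonuclease that maintains mitochondrial DNA, differed by 0.94, NDUFAF5, an assembly factor of respiratory complex I, by 0.95, and CRLS1, the cardiolipin synthase, by 0.60. The H3R arrays of all 4 genes lay above their H0R arrays.

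Several other listed genes act in vesicles, endosomes or the endoplasmic reticulum. KIF16B, a kinesin motor that carries early endosomes, read 5.92, 5.86 and 5.997 in H0R and 7.31, 7.15 and 7.23 in H3R, a 2.47-fold difference with tight replicates. RIN2, an exchange factor for the endosomal GTPase RAB5, read 7.99, 7.89 and 7.86 in H0R and 9.28, 9.25 and 9.10 in H3R, a 2.46-fold difference. In both genes the groups stood further apart than the whole spread of either. SEC23B, a component of the COPII coat that carries cargo out of the endoplasmic reticulum, was the brightest of the 10, at 9.82, 9.66 and 9.80 in H0R and 10.83, 10.80 and 10.89 in H3R. RRBP1, a ribosome-binding protein of the endoplasmic reticulum, read 8.05, 8.01 and 7.94 in H0R and 9.12, 9.17 and 8.87 in H3R. Both differed by over 2-fold (2.12 and 2.07), without overlap. SNX5, a sorting nexin of the retromer route, differed by 0.85, and TMX4, a redox protein of the endoplasmic reticulum, by 0.31 from a bright level of 8.34 ± 0.12.

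Adhesion and cytoskeletal genes included both higher and lower ones. FERMT1, which encodes the integrin activator kindlin-1, read 8.43, 8.11 and 8.24 in H0R and 9.53, 9.32 and 9.64 in H3R, a 2.35-fold difference without overlap. DSTN, the actin-depolymerising protein destrin, differed by 0.73. BFSP1, which encodes the lens filament protein filensin, was low, at 5.01, 4.63 and 4.96 in H0R and 6.10, 6.04 and 6.22 in H3R, and was the highest difference among the genes dimmer than the median gene. FLRT3, a membrane protein of cell adhesion whose gene lies within MACROD2 on the opposite strand, read 7.63, 7.62 and 8.15 in H0R and 6.56, 6.47 and 7.04 in H3R. It ran against its neighbours, 2.15-fold lower in H3R, with no overlap although replicate 3 was the highest array of both groups. MACROD2, its host gene, which removes ADP-ribose from proteins, was dim at 4.65 ± 0.15 and 4.51 ± 0.09, with overlapping arrays.

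NAA20, the catalytic subunit of the N-terminal acetyltransferase NatB, read 7.96, 7.93 and 7.59 in H0R and 8.88, 8.85 and 8.66 in H3R, without overlap. The chaperonin-like MKKS differed by 0.88, the protease TASP1, which cleaves the KMT2A protein, by 0.84, ANKEF1 by 0.78, the centrosome gene KIZ by 0.65, BTBD3 by 0.59, the zinc finger gene ZNF133 by 0.57 and the hydrolase gene RBBP9 by 0.46. All 8 were free of overlap. The phospholipase genes PLCB1 and PLCB4 differed by 0.28 and 0.29. DZANK1 differed by 0.36, and RALGAPA2, a regulator of RAL GTPases, by 0.18, both with overlap. The genes around 0 were dim: LRRN4 at 5.05 ± 0.21 in H0R and 5.10 ± 0.14 in H3R, BANF2 at 4.10 ± 0.09 and 4.07 ± 0.29, and SLC24A3, a sodium-calcium exchanger, at 4.41 ± 0.05 and 4.36 ± 0.07. ISM1, OVOL2, LAMP5 and CFAP61 differed by 0.07, 0.19, 0.16 and 0.07. The 3 filtered genes had group means between 2.99 and 3.52, at the low end of the scale.

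**Figure D2:**
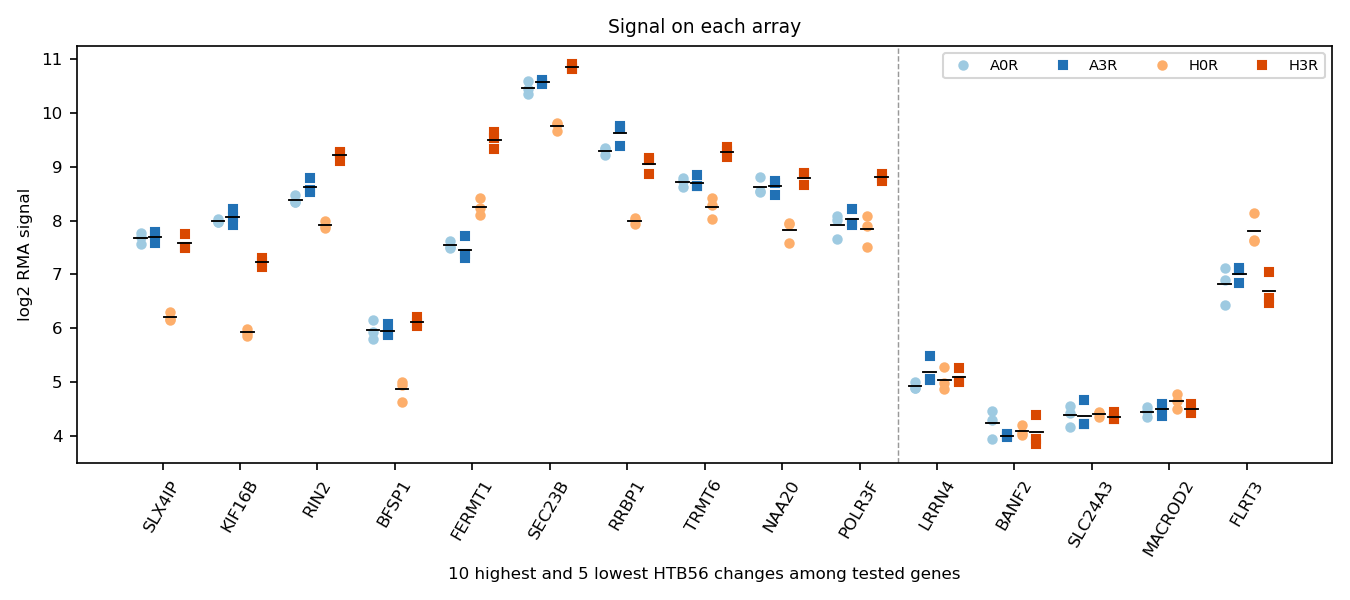
Log2 RMA signal on each of the 12 arrays for the 10 highest (left of the dashed line) and the 5 lowest HTB56 differences among the 41 tested genes of the list. Circles are unselected and squares selected arrays, and short lines are group means (n = 3); in the left 10 genes the H3R squares lie above all H0R circles, and in FLRT3 they lie below.

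Across the 41 genes the HTB56 difference followed the signal level. The 26 genes brighter than the median gene tested (a mean of 6.68 over the 12 arrays) had a median difference of 0.87, and 22 of them exceeded 0.5. The 15 dimmer genes had a median of 0.18, and 4 exceeded 0.5. Among all genes the corresponding medians were 0.00 and 0.03, and 7.10% of the brighter and 3.51% of the dimmer ones exceeded 0.5. Over the 41 genes Pearson's r between level and difference was 0.58, Spearman's rho 0.60, and r without FLRT3 0.68. The points share the same arrays and normalization. RMA compresses the differences of dim genes, and its part in this relation was not tested. The split by level and the mark at 0.5 were chosen after the values were seen.

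**Figure D3:**
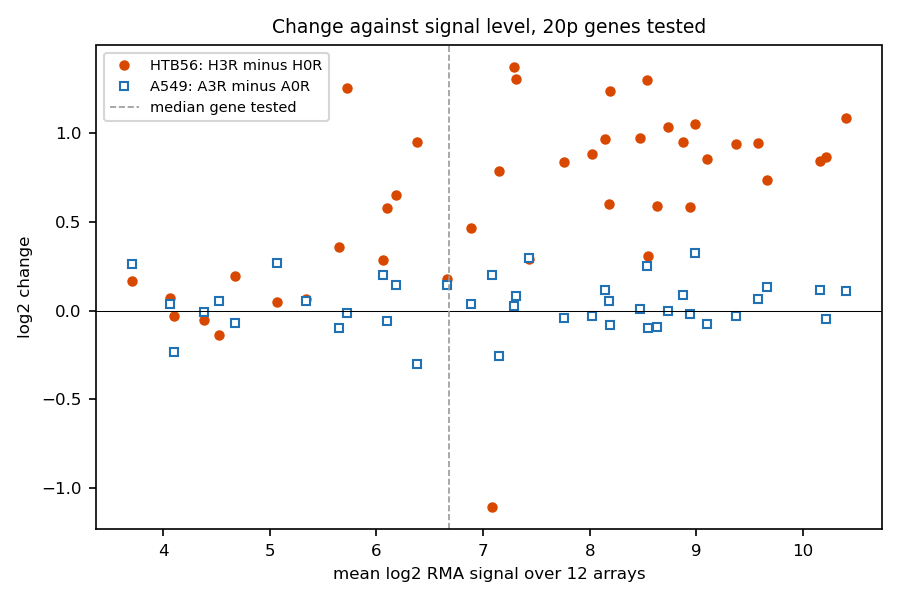
Change after selection (log2, vertical axis) against the mean signal over the 12 arrays (log2 RMA, horizontal axis) for the 41 tested genes, with HTB56 as filled circles, A549 as open squares and the median gene tested (6.68) as a dashed line. HTB56 differences right of the line have a median of 0.87 and left of it 0.18, and A549 squares lie around 0 at every level.

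The A549 contrast was not the one that put the list forward, though earlier results of these data were known when the list was chosen. In A549, 0 of the 41 tested genes changed at a limma adjusted p below 0.05, where 1.75% of all genes did. Of all genes, 0.945% rose and 0.809% fell. None of the 41 differed by more than 0.5 upward, where 1.46% of all genes did. With shares this small, a count of 0 among 41 genes is near that of all genes. Neither count sets the list apart. The median difference of A3R from A0R was 0.03, against -0.01 for all genes, and the range was -0.30 for NDUFAF5 to 0.32 for RRBP1. Only RRBP1 and RIN2, 2 of the 41, had an unadjusted p below 0.05, against 9.97% of all genes. RRBP1 read 9.33, 9.34 and 9.21 in A0R and 9.71, 9.76 and 9.38 in A3R. The groups did not overlap, but the difference of 0.32 (SE 0.12) had a limma adjusted p of 0.298, the smallest of the list, and of 0.0515 with the replicate number as a block. RIN2 read 8.33, 8.47 and 8.34 in A0R and 8.56, 8.80 and 8.53 in A3R, a difference of 0.25 (SE 0.10, limma adjusted p = 0.395). Arrays were free of overlap with A3R higher for 6 genes (6.27% of all genes) and with A3R lower for 1 (6.48%), among the 41. SLX4IP stood at 7.67 ± 0.11 in A0R and 7.70 ± 0.10 in A3R, KIF16B at 7.99 ± 0.03 and 8.07 ± 0.15, and FERMT1 at 7.54 ± 0.07 and 7.46 ± 0.22. FLRT3 stood at 6.82 ± 0.35 and 7.02 ± 0.15, with overlapping arrays.

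The second A0R array carried extra signal of genes that are bright in HTB56 and dim in A549: over 13 such genes it lay 0.84 above the A549 median, and the other 5 A549 arrays between -0.11 and 0.02. Without that array, as without any other, 0 genes of the list changed in A549, and the lowest limma adjusted p over these fits was 0.0969, for RRBP1.

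Set against A549, unselected HTB56 cells had low levels of the list. The median difference of H0R from A0R was -0.39, where all genes had -0.01. Of the 41 genes, 33 were lower in H0R, against 8754 of all 16939 genes tested. H0R arrays lay below all A0R arrays for 25 genes (25.3% of all genes) and above them for 4 (27.8%). Furthest below were KIF16B at -2.06, ANKEF1 at -1.78 and SLX4IP at -1.46, and furthest above were PLCB1 at 1.10, FLRT3 at 0.98 and FERMT1 at 0.72. After selection the median difference of H3R from A3R was 0.16; arrays were higher without overlap for 18 genes (28.4%) and lower for 6 (23.1%). Of the 26 genes with an HTB56 difference above 0.5, 24 had been lower in H0R than in A0R, with a median of -0.50, and the median of H3R against A0R was 0.28. In H3R, 19 of the 26 stood above the A0R mean and 7 below it, KIF16B among the latter at 7.23 against 7.99. Low levels in H0R were not particular to the list. The median of H0R against A0R was -0.33 over the 77 genes tested before CHGB, with 69 lower. It was -0.21 over the first 20 genes after XRN2, with 16 lower, and 0.03 over the remaining 356 genes of chromosome 20, with 161 lower. These differences use the H0R and H3R arrays behind the list and were not tested.

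**Figure D4:**
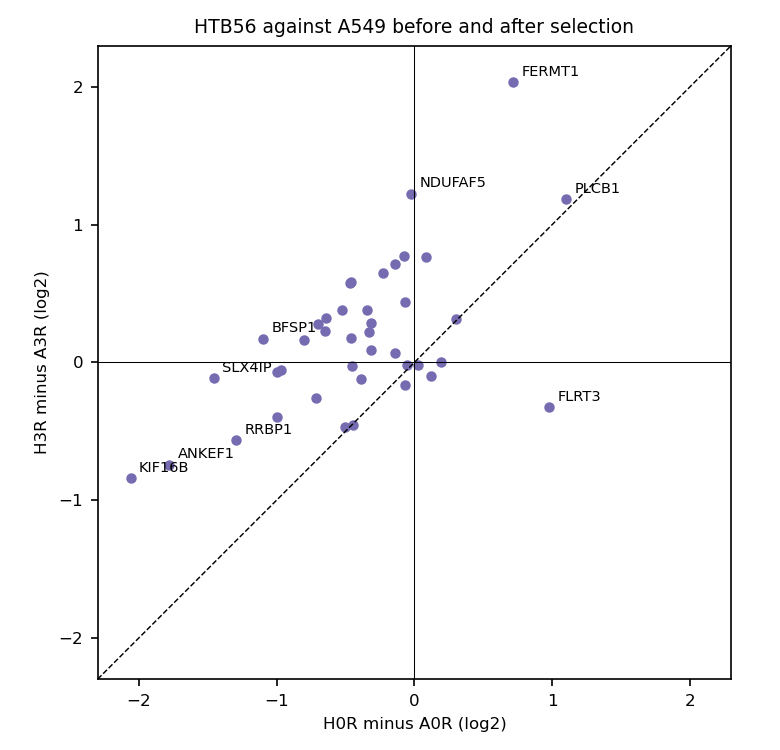
Difference of HTB56 from A549 for the 41 tested genes, before selection (H0R minus A0R, horizontal axis) and after it (H3R minus A3R, vertical axis), both log2. On the dashed line nothing differs between the stages; most points lie left of 0 and above the line, and FLRT3 lies below it.

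Array medians were taken over the 26 brighter genes, a split chosen after the values were seen. They were 8.53, 8.51 and 8.59 in A0R, 8.58, 8.55 and 8.50 in A3R, 8.15, 8.02 and 8.19 in H0R and 9.15, 9.14 and 8.98 in H3R. Within each group the arrays differed little (SD 0.04, 0.04, 0.09 and 0.10), the H0R arrays were the lowest and the H3R arrays the highest of the 12. Over all 41 tested genes of the list the array medians averaged 7.81 in A0R, 7.84 in A3R, 7.24 in H0R and 7.65 in H3R. There the H0R arrays were again the lowest, but the H3R arrays were not the highest. The median over all genes tested was 6.68 in H0R and 6.64 in H3R.

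The higher signal did not begin or end sharply at the edges of the list. Before TRMT6 came GPCPD1, a glycerophosphocholine phosphodiesterase, higher by 0.88 in H3R, SHLD1, a subunit of the shieldin repair complex, higher by 0.40, and CHGB, the chromogranin B gene, at 9.33 ± 0.18 in H0R and 5.72 ± 0.14 in H3R. PROKR2 and LOC643406, both dim, differed by -0.03 and -0.14. GPCPD1 also rose in A549, by 0.58 (limma adjusted p = 0.0424), to 8.54 ± 0.22 in A3R, a call lost on leaving out any A549 array but A3R replicate 3 (limma adjusted p up to 0.196). After XRN2 came NKX2-4, NKX2-2 and PAX1, developmental transcription factor genes, at 0.02, 0.14 and 0.12, the dim LOC284788, and FOXA2, a factor of endoderm and lung, which went from 8.03 ± 0.08 to 8.69 ± 0.08. Among 14 measured genes of the interval that are not on the list, the median difference of the 13 tested was 0.04. Of these, BMP2, a growth factor of the TGF-beta family, was higher by 1.31 and JAG1, a Notch ligand, by 1.12, and SNAP25, a protein of synaptic vesicle fusion, went from 8.18 ± 0.08 to 6.52 ± 0.05. SNAP25 also fell in A549, by 0.54 (limma adjusted p = 0.0261), a call lost on leaving out any A549 array but A0R replicate 2 or A3R replicate 3 (up to 0.109). LINC00652 differed by 0.51 with overlapping arrays, INSM1 by 0.09, PAK5 by -0.14, and RNU105B, LINC00687, MACROD2-IT1, LOC613266, LINC00851, SCP2D1 and SLC24A3-AS1 by -0.17 to 0.16, none of the 7 above 5.28 on any array. SCP2D1-AS1 was too dim to be tested.

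Along the rest of chromosome 20, the 77 genes tested before CHGB had a median HTB56 difference of 0.23, the first 20 after XRN2 0.13 and the remaining 356 genes 0.02. Among genes brighter than the median gene the values were 0.63 over 39 genes, 0.64 over 6 and 0.00 over 180. All 39 of the first set were higher in H3R, against 4262 of all 8469 brighter genes. A median over 11 consecutive bright genes ran from 0.60 to 0.94 at the genes of the list and from 0.48 to 0.85 before CHGB. It first fell below 0.2 at CST3, the cystatin C gene, with 5 bright genes between XRN2 and CST3 (CST3 itself differed by 0.80), and from there to the end of the chromosome it stayed between -0.32 and 0.33 over 176 genes. The median differences in A549 were -0.06 before CHGB, 0.06 for the first 20 genes after XRN2 and -0.01 for the remaining genes. The window of 11, the limit of 0.2 and the set of 20 were chosen after the values were seen, and these are descriptions of the contrast from which the list came.

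**Figure D5:**
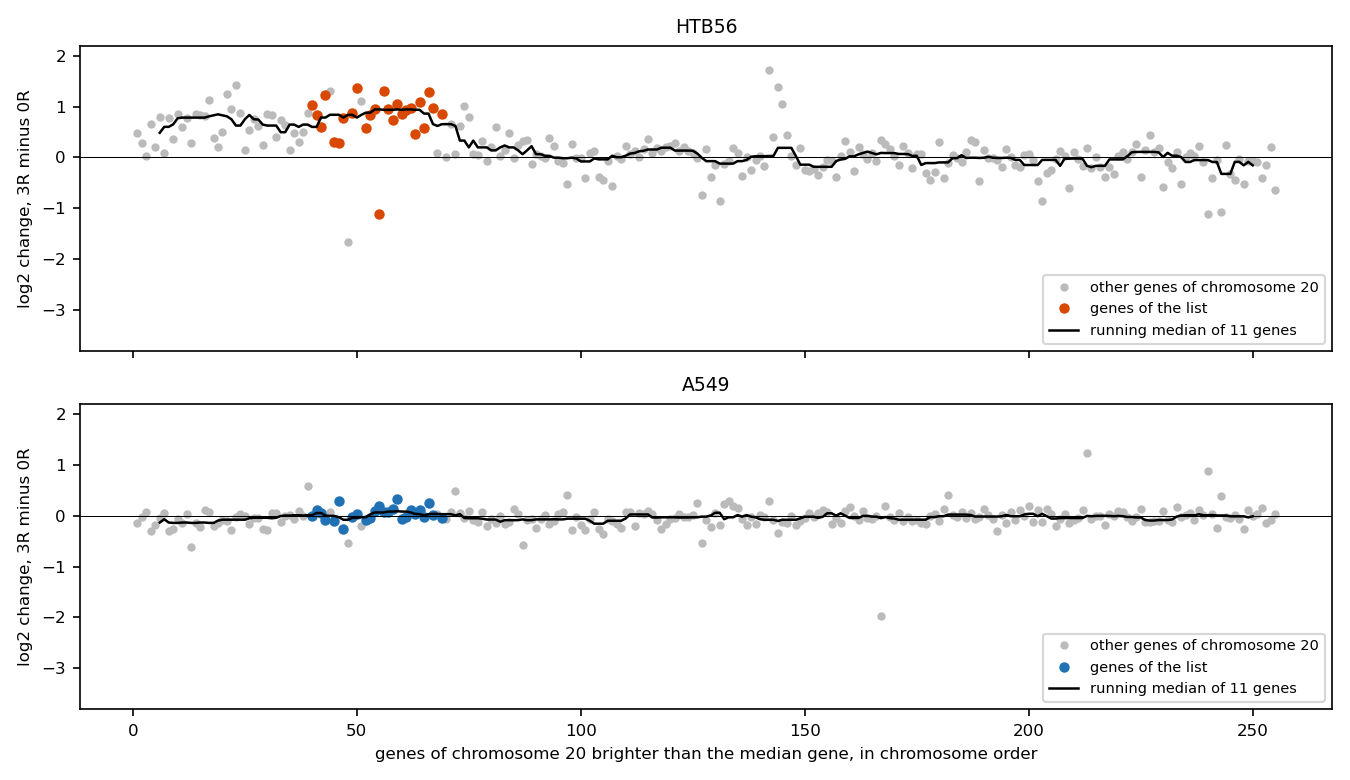
Change after selection (log2) of chromosome 20 genes brighter than the median gene, in chromosome order (rank, horizontal axis), for HTB56 (top) and A549 (bottom). Coloured points are genes of the list, grey points the others and the line a running median of 11 genes; in HTB56 the line lies at 0.60 to 0.94 over the list and near 0 along the long arm, and in A549 it lies near 0 throughout.

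Family members of the listed genes that lie elsewhere in the genome were tested in both lines. Of 53 such paralogs, 48 were tested; 4 rose and 4 fell in HTB56 (limma adjusted p below 0.05), where 8.57% of all genes rose and 10.9% fell, 19.5% in either direction. The paralogs' median was 0.05, while a fit blocked on replicate number had 5 rise and 8 fall. The share of all genes called in the blocked fit is not given here, so its counts cannot be set against 19.5%. FURIN, a proprotein convertase like the unmeasured PCSK2, rose by 0.86 (SE 0.15, limma adjusted p = 0.000692), with H0R arrays at 7.80, 7.85 and 7.58 and H3R arrays at 8.74, 8.72 and 8.35. BTBD6 rose by 0.74, SEL1L, an adaptor of endoplasmic reticulum protein degradation, by 0.53 and BTBD1 by 0.36. SEL1L3 fell by 1.65 (SE 0.15, limma adjusted p = 1.82e-06), with H0R arrays at 6.996, 7.28 and 7.64 and H3R arrays at 5.79, 5.51 and 5.67. BTBD2 fell by 0.64, PCSK7 by 0.52 and KTN1, a kinesin-binding relative of RRBP1, by 0.30. So the relatives of BTBD3 moved in both directions. The call of BTBD1 was lost without H0R replicate 1 or 2 or H3R replicate 1 or 3, and that of KTN1 without any of the 6 HTB56 arrays. In A549 0 of the 48 paralogs changed in limma, a count near the share of all genes (1.75%). An unadjusted limma p below 0.05 was found for 2 of the 48, against 9.97% of all genes.

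Of 73 genes elsewhere in the genome whose products work with those of the list, 71 were tested, and 8 rose and 6 fell in HTB56, with a median of 0.03. Those 14 calls are a share near that of all genes (19.5%). With the replicate number as a block 12 rose and 9 fell, again without the share of all genes in that fit. NAA25, the auxiliary subunit that pairs with NAA20 in NatB, rose by 0.73 (SE 0.10, limma adjusted p = 0.000176), with H0R arrays at 9.25, 8.99 and 9.24 and H3R arrays at 9.91, 9.77 and 9.98. TAFAZZIN, which remodels cardiolipin, rose by 0.68, BBS10, a chaperonin-like partner of MKKS, by 0.62, POLR3B, a catalytic subunit of RNA polymerase III, by 0.52 and WDR5, a subunit of histone-modifying complexes, by 0.51. YEATS2, a subunit of the acetyltransferase complex of KAT14, fell by 0.73 (SE 0.10, limma adjusted p = 0.000137), with H0R arrays at 8.69, 8.78 and 8.68 and H3R arrays at 7.94, 8.05 and 7.94. GNAQ, the G protein alpha subunit that activates phospholipase C beta, fell by 0.62, BBS12 by 0.53 and the COPII genes SEC13 and SEC24D by 0.41 each. Another COPII gene, SEC24A, rose by 0.47 (SE 0.11, limma adjusted p = 0.00594) and kept its call on leaving out any array. So the called COPII genes moved in both directions, as did BBS10 and BBS12. The COPII partners SEC24B, SEC24C, SEC31A, SAR1A and SAR1B were not called in HTB56, nor was the paralog SEC23A. The HTB56 call was lost without H0R replicate 2 or H3R replicate 3 for POLR3B, without H3R replicate 1 for SEC13, and without any HTB56 array but H0R replicate 1 for SEC24D.

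In A549, 1 of the 71 partners changed (0.945% of all genes rose). SEC24D, a cargo adaptor of the COPII coat and a partner of SEC23B, read 7.33, 7.48 and 7.80 in A0R and 8.24, 8.12 and 8.24 in A3R. It rose by 0.67 (SE 0.13, limma adjusted p = 0.0127), the opposite direction from HTB56, and the call was lost without A0R replicate 1, A0R replicate 2 or A3R replicate 1. An unadjusted p below 0.05 was found for 5 of the 71 partners, against 9.97% of all genes.

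Markers of other cells were read on the same arrays. HTB56 had low CDH1, the E-cadherin gene (4.55 ± 0.16 in H0R, 4.504 ± 0.25 in H3R), while its keratin genes ranged from KRT18 at 12.69 ± 0.10 and 12.64 ± 0.02 down to KRT19 at 6.52 ± 0.20 and 6.22 ± 0.29, below the median gene. The summed epithelial signal was 9625 to 10502 in H0R and 9811 to 10168 in H3R. Of 6 epithelial markers tested, 1 rose (EPCAM) and 1 fell (KRT7) by limma, where 8.57% of all genes rose and 10.9% fell. The summed signal of 7 fibroblast markers was 313 to 375 in H0R and 600 to 668 in H3R. Of 5 tested, 3 rose (COL1A1, COL3A1 and LUM), against 8.57% of all genes. PDGFRB was at 6.91 ± 0.35 in H0R and 6.72 ± 0.21 in H3R, COL1A2 at 5.45 ± 0.11 and 5.50 ± 0.25, and DCN and POSTN, too dim to be tested, at 2.74 ± 0.08 and 2.91 ± 0.13 in H3R. The leukocyte sum was 509 to 598 and 731 to 965. Of 5 tested, 2 rose (LYZ and CD68), against 8.57% of all genes. PTPRC, carried by all leukocytes, was at 2.92 ± 0.02 in H3R. The endothelial sum was 169 to 183 and 162 to 188, with 0 of 5 tested called by limma. The part of these genes in the list's HTB56 difference was not tested, and in bulk RNA fewer cells with a transcript and less of it per cell cannot be told apart.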

How the data were processed

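Log2 RMA values were deposited by the authors for 33297 probe sets, per the submitters' processing notes with Affymetrix Expression Console, whose version is not stated there. RMA subtracts background, sets all arrays to a common distribution and summarises probes. Probe sets with 1 symbol in the platform annotation (19460) were used; 1754 had several and 12083 were not listed. A gene was tested where its brightest probe set exceeded its array's 20th percentile (3.48 on average) on at least 3 arrays. RefSeq (GRCh38.p14) gave gene order and promoters.

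Group means were fitted over 12 arrays with limma 3.58.1 in R 4.3.3 (lmFit, eBayes, two-sided, Benjamini-Hochberg over all 16939 genes, threshold 0.05), after a test on simulated data. HTB56 values of the list, chosen from that contrast, were not tested. The list, the paralogs and the partners were chosen with earlier results of these data known. Described singly were the 10 highest and 5 lowest HTB56 differences, members called in A549, members that failed the filter and 5 measured genes beyond each end. So were interval genes off the list, and up to 5 called paralogs and partners per direction and line. The partner SEC24A was added outside this rule. Other members are given by role. Arrays with the same replicate number deviated together (r 0.16 to 0.55, other numbers -0.42 to 0.20; 12 of 12 closest to their own number), so the numbers pair the samples, from the data. Scanner files were not used here. Python 3.11.15 with pandas 2.3.3 wrote the tables and matplotlib 3.10.9 drew the figures.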

Additional observations from a re-analysis of the deposited data

Results flagged for a closer look

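For 13 of the 48 paralogs and 71 partners tested, the change after selection differed between the lines. This used limma's test of the difference itself (HTB56 change minus A549 change, adjusted p below 0.05). The largest differences were SEL1L3 at -1.85 (limma adjusted p = 3.76e-05) and SEC24D at -1.08 (limma adjusted p = 0.00111). SEC24D fell in HTB56 and rose in A549, and SEL1L3 fell in HTB56. Among the paralogs, FURIN differed by 0.88, BTBD6 by 0.81 and PCSK7 by -0.68. Among the partners, the difference was 0.78 for NAA25, 0.68 for TAFAZZIN, 0.63 for WDR5 and 0.50 for BBS10, and it was -0.72 for YEATS2, -0.64 for BBS12, -0.64 for SEC13 and -0.48 for GNAQ. BBS10 (limma adjusted p = 0.0453) and GNAQ (limma adjusted p = 0.0469) lay near the threshold. This test left out the pairing by replicate number, and no blocked result is given for it. The share of all genes with such a difference is not given here, so the count of 13 says nothing particular of these genes. The difference between lines was not tested for the listed 20p genes, whose HTB56 change chose the list.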

How the results depend on the processing

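The count of listed genes that changed in A549 was 0 under every alternative run. The median HTB56 difference of the list was 0.73, between 0.63 (no filter on dim genes) and 0.84 (filter at the 40th percentile) under other filters and normalizations, and 0.64 to 0.81 on leaving out 1 array; the A549 median stayed between 0.01 and 0.04. With the replicate block, paralogs called in HTB56 went from 8 to 13, and with array weights to 14. The shares of all genes called in those fits are not given here. Leaving out 1 array gave 6 to 9 paralogs. Partners called in HTB56 went from 14 to 8 at a threshold of 0.01 (11 to 14 on leaving out 1 array). The single partner called in A549, SEC24D, was lost to 0 at that threshold, in a fit of the line's 6 arrays, and on leaving out A0R replicate 1, A0R replicate 2 or A3R replicate 1 (0 to 1). Beyond these 8 changes, 238 recomputed summary values stayed within 1 SD between replicates of the main value, or within 1.5 times it for counts. Of the recomputed values of single genes, 33 kept their direction but lost the call, and 0 called values changed sign. Among the other 964, none of which moved across the threshold, 25 values changed sign, for 8 gene-and-line pairs not called or not tested and with main values of at most 0.12 in size (POLR3F in A549); the largest of the 25 was 0.08 in size. RMA compresses dim genes, which limits what the listed genes below the median signal can show.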
